A study of Mus musculus with 20 samples.

Results

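The 9 interferon-stimulated genes described here, Ifit1, Ifit3, Isg15, Irf7, Usp18, Rtp4, Ifi44, Bst2 and Oasl2, were taken by gene symbol from a deposited table of 29339 genes, and all 9 were found. The table holds heart RNA of C57BL/6 mice aged 8 weeks in 20 libraries: by their labels, 5 are of male and 3 of female wild type (WT) mice and 5 are of male and 7 of female TECRL-/- (KO) mice. Tecrl encodes a reductase-like protein linked to cardiac arrhythmia, and the study asked how its loss changes the heart transcriptome of each sex. No other allele or agent is named in the labels, and neither the design of the KO allele nor its breeding is described in the sources used here. The libraries carry 2 kinds of names: the S-named series runs from S1 to S12 with 3 libraries in each labelled group, and the WT/TKO-named series has WT1 and WT2 (male WT), TKO5 and TKO6 (male KO) and TKO1 to TKO4 (female KO). The labels do not say what sets the 2 name series apart.

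Interferons are secreted when a cell senses foreign or misplaced nucleic acid. Type I interferon binds its receptor, JAK kinases at the receptor become active, and a transcription factor complex that contains IRF9 binds the interferon-stimulated response element (ISRE) of its target genes. In the heart the program is known from viral myocarditis and from the response to infarction, and both muscle and non-muscle cells can run it.

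The members cover several roles of that program. Irf7 is the transcription factor that amplifies type I interferon production. Isg15 is a ubiquitin-like protein that is conjugated to other proteins, and Usp18 removes it and also restrains signalling at the receptor. Ifit1 and Ifit3 are tetratricopeptide-repeat proteins that act on foreign RNA, and Oasl2 belongs to the oligoadenylate synthetase family. Bst2, or tetherin, holds budding virus particles at the cell surface, Rtp4 is a receptor-transporting chaperone, and Ifi44 is an interferon-induced cytoplasmic protein.

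The ISRE was visible in the promoters of some members. Of the 9 genes, 7 had a promoter of 300 bases (250 before to 50 after the start) in the RefSeq table of GRCm38.p6. The core GAAANNGAAA, searched on both strands, was in 4 of the 7, against 3.99% of 27025 genes with a promoter in the same table and 51.9% of 54 other type I interferon-induced genes. The 4 windows below show the cores in capitals, 5′ to 3′ on the strand of the gene, with 20 bases on each side, because the spacing and strand of the cores differ between members.
Isg15, chr4:156200855-156200916, minus strand: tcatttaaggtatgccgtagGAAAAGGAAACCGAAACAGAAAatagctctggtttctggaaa
Bst2, chr8:71537567-71537622, minus strand: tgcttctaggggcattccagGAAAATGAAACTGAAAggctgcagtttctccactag
Ifit3, chr19:34583353-34583436, plus strand: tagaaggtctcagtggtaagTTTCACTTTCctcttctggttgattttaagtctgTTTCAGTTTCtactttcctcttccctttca
Ifit1, chr19:34640765-34640833, plus strand: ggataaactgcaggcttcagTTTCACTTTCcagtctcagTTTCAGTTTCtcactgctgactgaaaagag

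Isg15 held 3 overlapping cores and Bst2 held 2, all on the strand of the gene, whereas Ifit1 and Ifit3 each held 2 separate cores on the other strand. The letters were not in the promoter windows of Irf7, Oasl2 and Ifi44. The core of the interferon-gamma-activated sequence (GAS), TTCNNNGAA, was in the Bst2 promoter, where it overlapped the ISRE cores, and in 9.55% of the 27025 genes. A match of letters is a description and not a measured binding site.

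**Figure D1:**
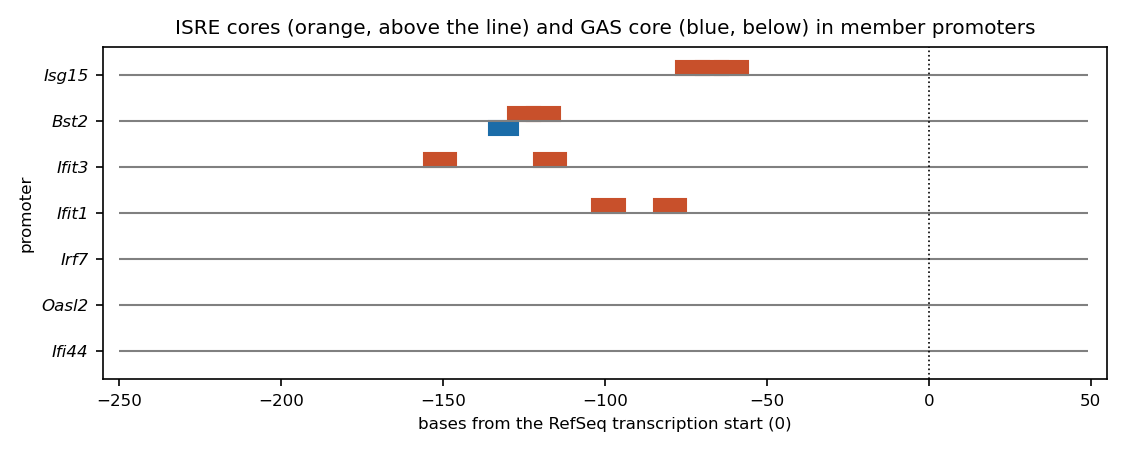
Positions of the ISRE core (orange, above each line) and of the GAS core (blue, below) in the RefSeq promoters of 7 members, with the distance in bases from the transcription start at 0 on the x axis. Cores stand in 4 promoters, and overlapping cores are drawn as 1 block.

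The members lie at separate places in GRCm38, apart from the neighbours Ifit3 (19:34583531-34588731) and Ifit1 (19:34640871-34650009), both on the plus strand. Isg15 lies at 4:156199424-156200818, Irf7 at 7:141262706-141266481, Ifi44 at 3:151730922-151749960 and Bst2 at 8:71534255-71537456, all on the minus strand. Usp18 lies at 6:121245906-121270917, Rtp4 at 16:23520291-23614222 and Oasl2 at 5:114896936-114912234, on the plus strand. The exons of Irf7 share 45 bases with Phrf1 on the opposite strand, those of Usp18 share 124 bases with Gm44148 on the opposite strand, and those of Rtp4 share 184 bases with Gm45338 on the same strand. The counting was not stated to use strand, so reads over these bases cannot be assigned to 1 gene. Reads of Ifit1 and Ifit3 may also be shared with close copies such as Ifit3b, and these genes are uncertain to that extent.

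Total counts ran from 13218361 to 20038593 in the S-named libraries and from 12540002 to 18151319 in the WT/TKO-named libraries, and mitochondrial genes took 15.3% to 30.4% and 21.8% to 25.7% of them. No member had fewer than 19 counts in any library. In 6 libraries the sex-linked genes went against the label: S4, S5 and S6, labelled female KO, had Y-linked transcripts, and S7, S8 and S9, labelled male WT, had Xist and none from the Y chromosome. Tecrl was not lower in the libraries labelled KO. Its level ran from 51.9 to 122.5 CPM over all libraries, so the transcript count does not check the genotype labels. CPM are counts scaled to the library total after adjustment by its TMM factor. S7 also stood apart by its B cell transcripts. The groups below are therefore those of the labels, and results are also given without S4 to S9.

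All 9 members were expressed in every library. Compared per length, as the authors' FPKM averaged over 20 libraries, Bst2 was highest at 49.6 ± 29.0 (SD) and above Irf7 in 20 of 20 libraries. Irf7 (11.6 ± 10.4 FPKM) and Isg15 (9.39 ± 4.69 FPKM) were not separated, since Irf7 was the higher of the pair in 9 of 20 libraries. Below them stood Ifit3 (8.05 ± 4.14 FPKM), Rtp4 (5.41 ± 2.26 FPKM) and Ifit1 (3.68 ± 2.11 FPKM).

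Oasl2 (2.07 ± 0.828 FPKM), Usp18 (1.65 ± 0.838 FPKM) and Ifi44 (0.717 ± 0.312 FPKM) were lowest. Isg15 exceeded Ifit3 in 14 and Oasl2 exceeded Usp18 in 16 of 20 libraries, so these neighbours also crossed, while each other neighbouring pair kept its order in at least 19 libraries. Irf7 varied most among the members, with a highest level 14.3-fold above its lowest, and Rtp4 least, at 3.98-fold.

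The clearest pattern in the members followed the library names and not the genotype labels. All 9 members were lower in the WT/TKO-named than in the S-named libraries in the fit of all 20 libraries, by 0.56 to 1.77 on the log2 scale, with a median of -1.05 beside -0.01 over all genes. All 9 passed a Benjamini-Hochberg adjusted p under 0.05 in edgeR's quasi-likelihood test, against 16.4% of the 15187 genes tested in either direction and 8.92% in the lower direction. At the thresholds of the study (a log2 fold change of 0.58 or more in size and an unadjusted p under 0.05), 8 of 9 passed, against 12.8% of genes.

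**Figure D2:**
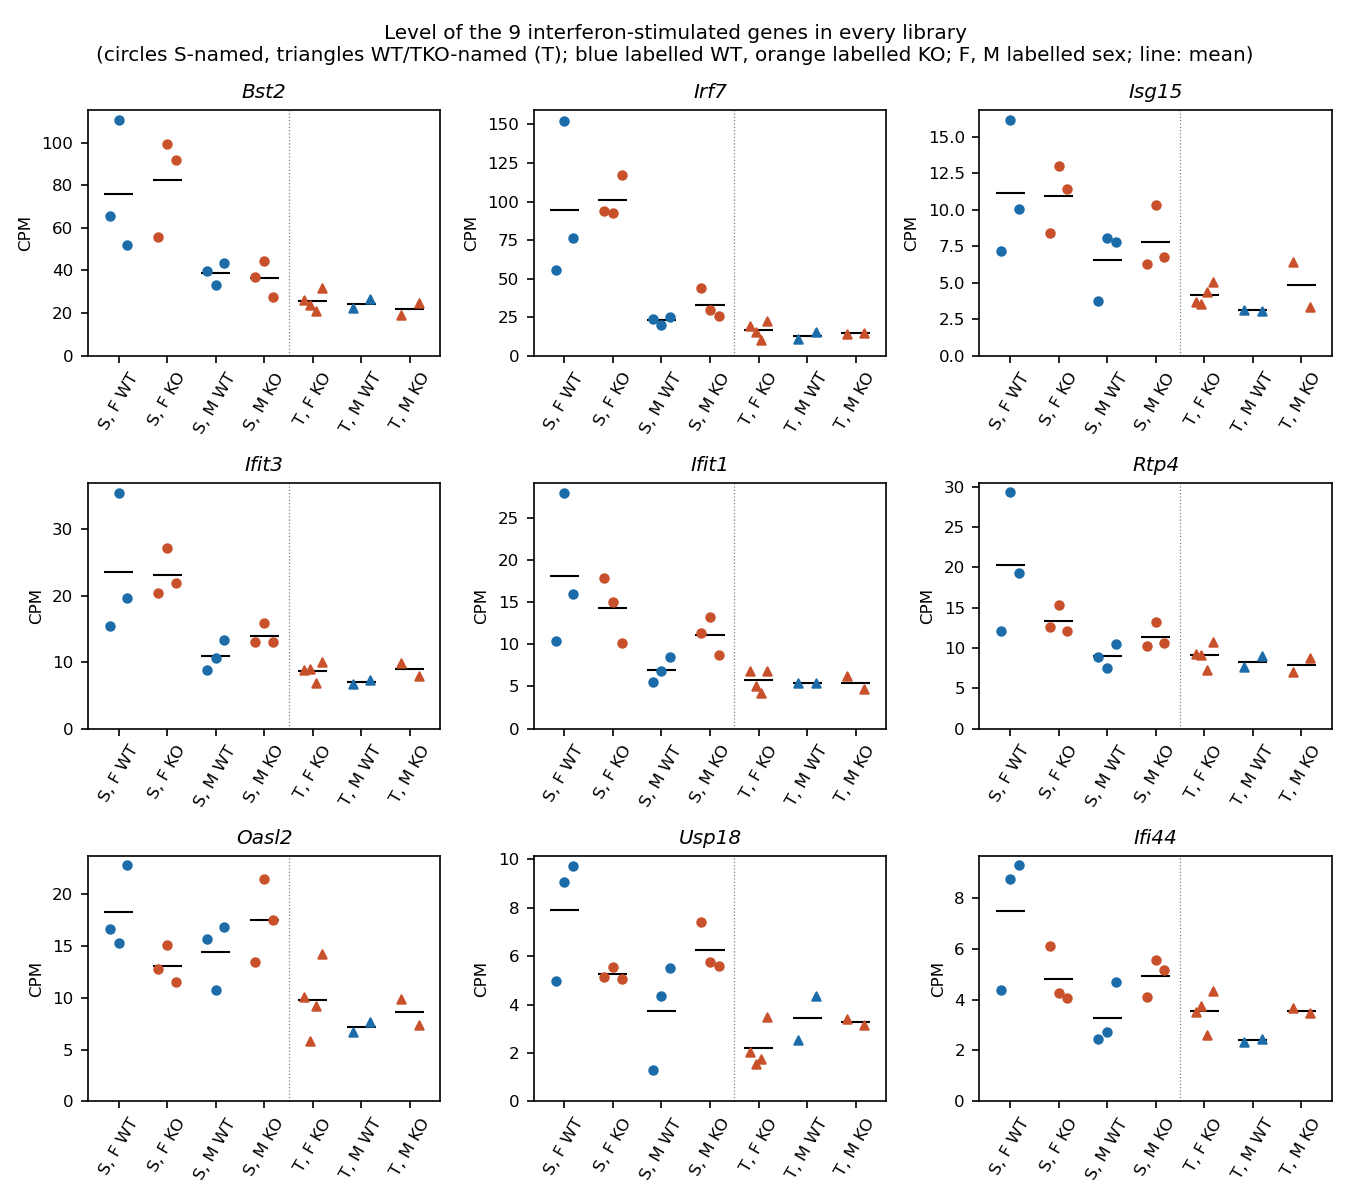
CPM (y axis, from 0) of each member in each library, by name series, labelled sex and labelled genotype (x axis); each point is 1 library and each line a group mean. The S-named libraries labelled female hold the highest Irf7 and Bst2 levels. The WT/TKO-named libraries are lower on average for all 9 members and overlap the S-named range for each.

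Irf7 showed the largest difference between the name series. In the WT/TKO-named libraries it had 10.8 CPM in WT1 and 15.3 in WT2, 14.1 in TKO5 and 14.7 in TKO6, and 19.2, 15.3, 10.4 and 22.2 in TKO1 to TKO4. In the S-named libraries labelled male it had 23.6, 19.99 and 25.4 CPM in S7 to S9 (WT) and 43.7, 29.5 and 25.8 in S10 to S12 (KO). In those labelled female it had 55.3, 152.1 and 76.4 CPM in S1 to S3 (WT) and 93.6, 92.6 and 117.3 in S4 to S6 (KO). The levels of the 2 name series overlapped only between S8 and TKO4, and within the S-named libraries every library labelled female lay above every library labelled male. The fitted difference between name series was -1.77 on the log2 scale (standard error 0.27, adjusted p = 0.000303 by edgeR).

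Bst2 followed the same order. It had 22.3 and 26.5 CPM in WT1 and WT2, 19.1 and 24.8 in TKO5 and TKO6, and 26.2, 24.0, 20.9 and 31.9 in TKO1 to TKO4. In the S-named libraries labelled male it ranged from 27.7 to 44.6 CPM (median 38.2, n = 6), and in those labelled female from 51.8 to 110.6 CPM (median 78.6, n = 6). TKO4 was the WT/TKO-named library that reached into the S-named range, where S12 was lowest. The fitted difference between name series was -1.12 (standard error 0.18, adjusted p = 0.000562 by edgeR).

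Isg15 and Usp18, the modifier and the enzyme that removes it, were lower together. Isg15 ranged from 3.09 to 6.43 CPM (median 3.60, n = 8) in the WT/TKO-named and from 3.72 to 16.2 CPM (median 8.22, n = 12) in the S-named libraries. Usp18 ranged from 1.55 to 4.35 CPM (median 2.84) and from 1.28 to 9.71 CPM (median 5.55), respectively. Both pairs of ranges overlapped: S7 held the lowest S-named value of both genes, and its Usp18 level was the lowest of all 20 libraries. The fitted differences were -1.17 for Isg15 (standard error 0.21, adjusted p = 0.00128) and -1.02 for Usp18 (standard error 0.28, adjusted p = 0.0173) by edgeR.

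The RNA-directed effectors Ifit1, Ifit3 and Oasl2 were also lower in the WT/TKO-named libraries. Ifit1 had 4.19 to 6.88 CPM (median 5.39) there and 5.47 to 27.9 CPM (median 10.9) in the S-named libraries, and Ifit3 had 6.74 to 10.03 CPM (median 8.42) and 8.79 to 35.5 CPM (median 15.6). Oasl2 had 5.86 to 14.2 CPM (median 8.42) and 10.7 to 22.8 CPM (median 15.5). All 3 genes overlapped between the series, and S2 held the highest level of both Ifit genes, whereas S3 held that of Oasl2. By edgeR the differences were -1.11 for Ifit1 (adjusted p = 0.00228), -1.05 for Ifit3 (adjusted p = 0.000692) and -0.85 for Oasl2 (adjusted p = 0.00297).

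Rtp4 and Ifi44 had the smallest differences. Rtp4 had 7.02 to 10.8 CPM (median 8.88) in the WT/TKO-named and 7.57 to 29.3 CPM (median 12.1) in the S-named libraries, a difference of -0.56 (adjusted p = 0.0301 by edgeR). Ifi44 had 2.35 to 4.34 CPM (median 3.49) and 2.43 to 9.28 CPM (median 4.52), a difference of -0.64 (adjusted p = 0.0466 by edgeR). When each library was left out in turn, Ifi44 stayed under 0.05 in 8 of 20 fits, with an adjusted p of up to 0.108 without WT1, and Rtp4 in 16 of 20, with up to 0.0713 without S11, while the other 7 members stayed under 0.05 in all 20 fits. No member separated the name series without overlap, against 1.03% of genes that did.

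The difference between the name series was as large without S4 to S9, where all 9 members passed the adjusted p, against 18.7% of 14747 genes, with log2 fold changes of -1.76 for Irf7, -1.08 for Oasl2 and -0.75 for Rtp4. Among KO libraries alone, 6 in each series, 7 members passed, against 11.2% of 14540 genes, and Oasl2 (-0.65, adjusted p = 0.0521 by edgeR) and Ifi44 (-0.45, adjusted p = 0.10) did not.

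With the groups as labelled, no member passed an adjusted p under 0.05 for KO against WT, where the question was whether loss of Tecrl changes these genes. This rests on the labels of S4 to S9, and an exchange of S4 to S6 with S7 to S9 would make the S-named differences by labelled sex given below, in Irf7, Bst2 and Ifit3, differences between WT and KO. As labelled, every S-named WT library carried Xist and every S-named KO library carried Y-linked transcripts. Labelled genotype and the sex read from these genes therefore cannot be told apart within the S-named libraries. In the libraries labelled male, the log2 fold changes ran from -0.13 for Bst2 to 0.57 for Ifi44, with a median of 0.36, and 8 of 9 were above 0. None of the 9 was called at the adjusted p, as for 0 of 14481 genes (0%), or at the thresholds of the study, which 2.09% of genes passed. At an unadjusted p under 0.05, without the fold threshold, Ifi44 and Ifit3 passed, among 688 genes in all.

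Ifi44 in the libraries labelled male had 2.35 and 2.46 CPM in WT1 and WT2, 2.43, 2.71 and 4.67 in S7 to S9, 4.11, 5.56 and 5.14 in S10 to S12 and 3.68 and 3.46 in TKO5 and TKO6. All KO libraries thus lay above 4 of the 5 WT libraries, and S9 overlapped the KO range. The fitted difference was 0.57 (standard error 0.22, adjusted p = 0.882 by edgeR). Ifit3 differed by 0.34 (standard error 0.15) and Irf7 by 0.36 (standard error 0.17), each with an adjusted p of 0.882 by edgeR. Without S4 to S9, or with the Y-linked level as covariate, Ifit1, Usp18 and Rtp4 turned to values slightly below 0.

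In the libraries labelled female the fold changes ran from -0.63 for Ifi44 to 0.11 for Bst2, with a median of -0.33. None of the 9 members passed the adjusted p, against 0.0551% of 14511 genes, and 1 member, Rtp4, passed the thresholds of the study, against 9.99% of genes. Rtp4 had 12.1, 29.3 and 19.4 CPM in S1 to S3 (WT), 12.6, 15.4 and 12.1 in S4 to S6 (KO) and 9.30, 9.18, 7.25 and 10.8 in TKO1 to TKO4 (KO). The KO libraries S4 to S6 lay within or at the edge of the WT range, and the TKO libraries lay below it. The fitted difference was -0.60 (standard error 0.26, adjusted p = 0.268 by edgeR).

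S1 to S3, the libraries labelled female WT, differed widely from each other, and they set the contrast. Irf7 had 55.3 CPM in S1 and 152.1 in S2, and without S2 the members' median turned from -0.33 to 0.12, whereas without S1 it was -0.55 and Rtp4 (adjusted p = 0.0161) and Ifi44 (adjusted p = 0.0293) passed by edgeR, as did 16.8% of 14358 genes. Oasl2 had 16.6, 15.3 and 22.8 CPM in S1 to S3 and 12.7, 15.05 and 11.5 in S4 to S6, with a fitted difference of -0.48 (standard error 0.26, adjusted p = 0.356 by edgeR).

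The WT/TKO-named series holds no library labelled female WT, so a fit without the series term sets S1 to S3 against a mixture. Its median was -0.84, and 5 members passed the thresholds of the study, against 9.99% of 14511 genes. Without S4 to S9 the comparison is of S1 to S3 against TKO1 to TKO4, where genotype and name series cannot be told apart; all 9 members were then lower, from -0.89 for Oasl2 to -2.50 for Irf7, and 6 passed the adjusted p, against 2.57% of 14235 genes.

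Over all 20 libraries the genotype difference of the members lay between -0.20 (Rtp4, standard error 0.17) and 0.14 (Isg15, standard error 0.20), with an adjusted p of at least 0.996 by edgeR. None was called at the adjusted p, as for 0 of 15187 genes (0%), or at the thresholds of the study, which 1.94% of genes passed; 748 genes had an unadjusted p under 0.05, and DESeq2 called 12 genes at the adjusted p, with no member among them. Irf7 had a difference of 0.02 (standard error 0.25), and it was -0.51 without S4 to S9, which did not pass either.

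**Figure D3:**
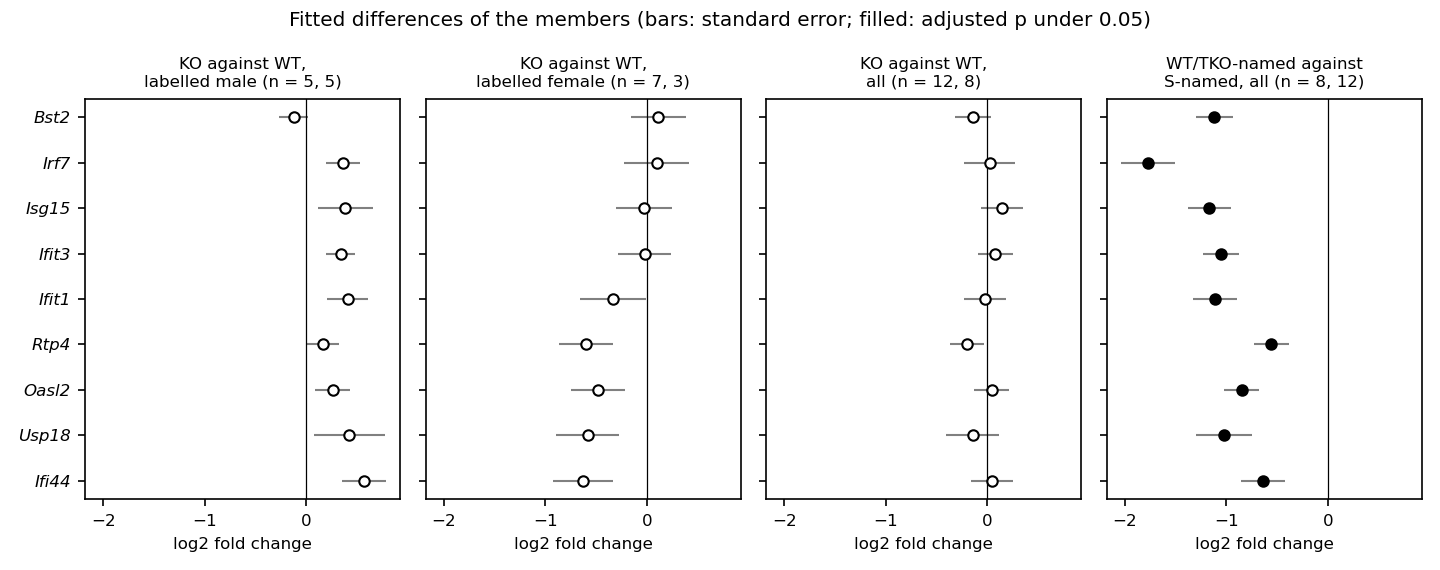
Log2 fold change (x axis) with its standard error (bars) of each member (rows) in 4 comparisons, from edgeR; filled points passed an adjusted p under 0.05. The genotype comparisons hold open points on both sides of 0, and the comparison of WT/TKO-named with S-named libraries holds 9 filled points between -1.77 and -0.56.

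The genotype difference was not shown to depend on labelled sex. The genotype by labelled sex term was below 0 for all 9 members, from -0.06 for Bst2 to -1.20 for Ifi44 and Usp18, but none passed the adjusted p in edgeR, as for 0 of 15187 genes (0%), while 2375 genes and 4 members had an unadjusted p under 0.05 and DESeq2 also called no member. Without S1, Ifi44 and Rtp4 passed, as did 7.45% of 15120 genes. Without S2 none passed and the Bst2 term was 0.31. In that fit 1 member had an unadjusted p under 0.05, as did 1771 of 15118 genes.

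Within the S-named libraries, Irf7 and Bst2 also differed by labelled sex, a comparison that was added after their values were seen. In the fit of all 20 libraries Irf7 was higher in libraries labelled female by 1.23 on the log2 scale (standard error 0.25, adjusted p = 0.0321 by edgeR), and it was the 1 member that passed, against 0.481% of genes. Bst2 (0.75, adjusted p = 0.0572) and Ifit3 (0.60, adjusted p = 0.109) did not pass in edgeR. The Irf7 call held in 12 of 20 fits that left out 1 library, with an adjusted p of up to 0.0857 without S2.

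Within the S-named libraries alone Irf7 (1.84, adjusted p = 0.00472), Bst2 (1.08, adjusted p = 0.0276) and Ifit3 (0.92, adjusted p = 0.0439) passed by edgeR, against 0.866% of 14783 genes. The 2 members whose ranges did not overlap between S-named libraries of the 2 labelled sexes were Irf7 and Bst2, against 1.32% of genes. Oasl2 had no such difference (-0.03, standard error 0.19), with 11.5 to 22.8 CPM in the libraries labelled female and 10.7 to 21.5 CPM in those labelled male.

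The sex difference of Irf7 was 0.21 (standard error 0.27) within the WT/TKO-named libraries, where no member passed. The term for a different sex effect in the 2 series was -1.67 for Irf7 (standard error 0.36, adjusted p = 0.0664 by edgeR) and called none of the members, against 0.158% of genes; 1879 genes had an unadjusted p under 0.05. DESeq2 called 1 member, Irf7, in that term, against 2.06% of genes. Irf7 was high in S4 to S6, which carry Y-linked transcripts, and low in S7 to S9, which carry Xist, so within the S-named libraries its level went with the labelled sex and not with the sex-linked genes. If the labels of S4 to S6 and of S7 to S9 were exchanged, which would fit the sex-linked genes, S1 to S6 would all be WT and S7 to S12 all KO, and the same libraries that differ here by labelled sex would differ by genotype, with no overlap for Irf7 (55.3 to 152.1 against 19.99 to 43.7 CPM) and Bst2. Whether such an exchange took place was not tested, so labelled sex and genotype cannot be told apart for this difference. In the S-named libraries left without S4 to S9, sex and genotype labels change together and cannot be told apart. Without S4 to S9 the difference of Irf7 over both series was 0.74 (standard error 0.25, adjusted p = 0.356 by edgeR).

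The members varied together across libraries. Over all 20 libraries the 36 pairs of members had a median Pearson r of 0.784 on log2 CPM (median Spearman rho 0.808), from 0.574 to 0.955, and all 36 passed a permutation test with adjustment over the pairs; the test did not keep libraries within their groups, and with group means removed the median r was 0.50. These libraries differ by name series, so the values within each series are the more direct ones: the median r was 0.704 in the S-named libraries (n = 12, 34 pairs above 0, 23 passing) and 0.445 in the WT/TKO-named libraries (n = 8, 33 pairs above 0, 2 passing by the exact test). As a description, the median r of the members with the 15178 other genes tested was 0.01 in each of these sets.

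Part of the agreement in the S-named libraries came with the libraries at the extremes. When the 2 libraries farthest from the median of the first gene of a pair were left out, the median r was 0.774 over all libraries, 0.474 in the S-named and 0.384 in the WT/TKO-named libraries. Within the 6 S-named libraries labelled female it was 0.598 and within the 6 labelled male 0.514, with no pair passing after adjustment in the exact permutation tests.

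Ifit3 was the member closest to the others, with a median r of 0.871 to them in the S-named libraries, and its strongest partner was Irf7 (r = 0.912, rho = 0.923, n = 12; permutation p = 3e-05 and 6e-05, adjusted p = 0.000874 and 0.00126; r = 0.894 without the 2 farthest libraries). Both genes were spread by labelled sex there, and within each label the order of partners was another. In the 6 libraries labelled male the r of Ifit3 with Irf7 was 0.484 (exact permutation p = 0.344, adjusted p = 0.577; rho = 0.657, p = 0.175, adjusted p = 0.414) and its highest r was that with Ifi44 (0.947, adjusted p = 0.136). In the 6 labelled female its r with Irf7 was 0.876 (exact permutation p = 0.0236, adjusted p = 0.25; rho = 0.829, p = 0.0583, adjusted p = 0.445) and its highest that with Isg15 (0.956, adjusted p = 0.2). In all 12 S-named libraries Oasl2 had a median r of 0.12 with the other members, and values of -0.11 with both Irf7 and Bst2. Its median r was 0.033 in the S-named libraries labelled female and 0.418 in those labelled male. In the WT/TKO-named libraries it was 0.494, where those of Isg15 (0.265) and Usp18 (0.215) were lower. In the WT/TKO-named libraries the pairs that passed were Rtp4 with Bst2 (r = 0.963, exact permutation p = 0.000298, adjusted p = 0.0107; rho = 0.881, p = 0.00724, adjusted p = 0.0652; r = 0.924 without the 2 farthest) and Ifit3 with Ifi44 (r = 0.936, exact permutation p = 0.000818, adjusted p = 0.0147; rho = 0.952, p = 0.00114, adjusted p = 0.0411; r = 0.882 without them).

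**Figure D4:**
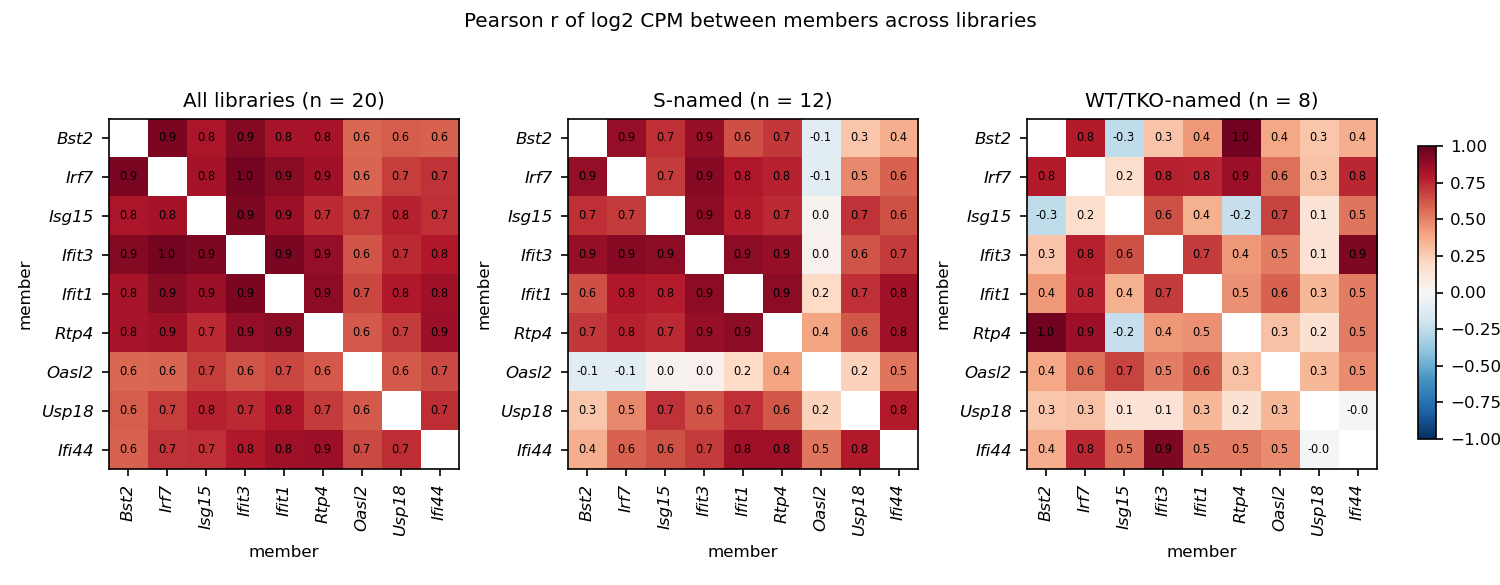
Pearson r of log2 CPM between each pair of members across all libraries (n = 20), the S-named (n = 12) and the WT/TKO-named libraries (n = 8), on a colour scale from -1 to 1. The row of Oasl2 is pale in the S-named libraries, where its median r with the other members was 0.12.

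The genes outside the members whose level most resembled theirs were chosen by Pearson r with the mean standardised log2 CPM of the members over all 20 libraries. In order they were Xaf1 (r = 0.953), Gzma (0.930), Arrb2 (0.920), Gmfg (0.910), Ifi27 (0.91), H2-T23 (0.904), Irf9 (0.902), Phf11d (0.897), Ifit3b (0.896) and Mvb12a (0.892). Of these 10 genes, 6 are in the interferon lists used below, as are 31 of the first 100, while those lists hold 0.942% of all genes tested. Gzma, a granzyme of natural killer and T cells, is outside those lists. Xaf1 kept an r of 0.946 in the S-named and 0.777 in the WT/TKO-named libraries, whereas H2-T23 had 0.813 and 0.08.

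The other genes of the pathway were taken from lists by role, and their counts and those of the marker lists further on stand beside 16.4% of all genes that passed between the name series, 8.92% lower. Of the interferon genes themselves, the table holds Ifne, with 1 count over all libraries, and Ifng, with 7 counts and at most 3 in a library, and neither could be tested. Among genes of receptors and signalling, the list median was -0.09 for WT/TKO-named against S-named libraries. By edgeR the transcription factor Irf9 (-0.49) and the receptor chain Ifngr1 (-0.30) were lower, and the receptor chain Ifngr2 (0.59) and the kinase Jak2 (0.46) were higher. Of 18 nucleic acid sensors and adaptors, 3 were lower, the Z-nucleic acid sensor Zbp1 (-1.81), the adaptor Myd88 (-0.44) and the nucleotide hydrolase Samhd1 (-0.38), none was higher (8.92% of all genes were lower), and the median was -0.17. At the thresholds of the study 1 of these 18 was lower, where 12.8% of all genes passed in either direction.

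Of 69 other type I interferon-induced genes tested, 32 were lower and none was higher in the WT/TKO-named libraries (8.92% of all genes were lower), the others did not pass, and the median was -0.57. Among them were the antiviral GTPase Mx1 (-1.84), the synthetases Oas1a (-0.66), Oas1b (-0.94) and Oas1c (-1.001), the exonuclease Isg20 (-0.79), the membrane proteins Ifitm1 (-0.65), Ifitm2 (-0.97) and Ifitm3 (-0.60), and Ifit3b (-0.94). The Isg15-conjugating enzymes Uba7 (-0.75) and Ube2l6 (-0.64) were lower with Isg15 itself. The DNA-binding Ifi200 family gave Ifi204 (-0.78), Ifi206 (-1.63), Ifi209 (-1.21) and Ifi213 (-1.13), and the chemokines were Ccl5 (-1.85) and Cxcl10 (-1.84).

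The remaining genes of that list that passed were Apol9a (-2.84), Apol9b (-1.64), Ms4a4c (-1.99), Slfn1 (-1.55), Slfn2 (-0.99), Phf11b (-1.34), Phf11d (-0.67), Ifi27 (-1.27), Ifi27l2a (-1.06), Epsti1 (-1.26), Xaf1 (-0.95), Ifi35 (-0.84), Nmi (-0.52), Lgals3bp (-0.74) and Tor3a (-0.33). Several belong to families of close copies (Apol9a and Apol9b, the Oas1 genes, the Slfn genes and the Ifi200 family), whose counts may be shared.

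Of 20 GTPases and chemokines that lean to interferon gamma, 3 were lower, Igtp (-1.34), Irgm1 (-1.01) and Gbp2 (-0.64), none was higher (8.92% of all genes were lower), and the median was -0.46. At the thresholds of the study 8 of the 20 were lower and none was higher, where 12.8% of all genes passed in either direction. Antigen presentation by MHC class I, which both kinds of interferon induce, was lower for 16 of 18 genes, with a median of -0.83. These were the immunoproteasome subunits Psmb8 (-1.76), Psmb9 (-1.27) and Psmb10 (-0.94), the proteasome activators Psme1 (-0.60) and Psme2 (-0.63), the light chain B2m (-1.13) and the heavy chains H2-K1 (-1.28), H2-D1 (-0.93), H2-T22 (-0.97), H2-T23 (-0.65), H2-Q7 (-0.90) and H2-Q4 (-0.73). The peptide transporter genes Tap1 (-0.90) and Tap2 (-0.52), the chaperone Tapbp (-0.38) and the class I transactivator Nlrc5 (-0.70) completed them. The heavy-chain genes are close copies and their counts may be shared.

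**Figure D5:**
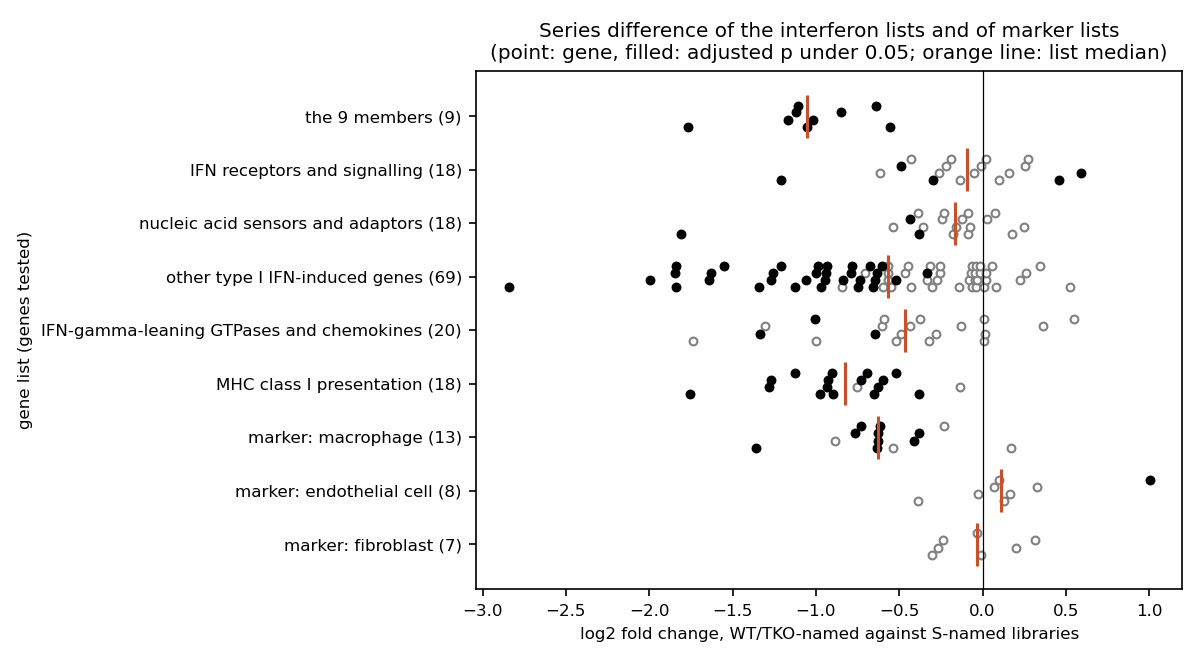
Log2 fold change of WT/TKO-named against S-named libraries (x axis) for each gene tested (points) of the members, 5 interferon lists and 3 marker lists (y axis); filled points passed an adjusted p under 0.05 and orange lines are list medians. The medians were -1.05 for the members, -0.83 for MHC class I presentation, -0.57 for other type I genes and -0.09 for receptors and signalling.

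None of these 5 lists had a gene that passed the adjusted p by edgeR for KO against WT, in the libraries labelled male, in those labelled female or in all 20, where 0%, 0.0551% and 0% of all genes did. At the thresholds of the study, which 9.99% of genes passed in the libraries labelled female, 1 higher and 12 lower of 68 other type I genes and 3 lower of 18 MHC class I genes passed there, as did 2 lower of 18 sensors, 1 higher and 1 lower of 19 GTPases and chemokines and 1 of each direction among 18 receptor and signalling genes. Over all 20 libraries, where 1.94% of genes passed these thresholds, 3 of 18 MHC class I genes, 3 of 20 GTPases and chemokines and 2 of 69 other type I genes were lower, with none higher, and 7 of the MHC class I genes had an unadjusted p under 0.05. In the libraries labelled male, where 2.09% passed, 3 higher and 1 lower of 67 other type I genes and 1 lower of 20 GTPases and chemokines did. The genes with the highest levels gave values in the 3 comparisons, in that order, of -0.21, 0.13 and -0.32 for B2m, -0.24, 0.08 and -0.27 for H2-D1, 0.33, -0.05 and 0.11 for Ly6a, and -0.02, -0.32 and -0.13 for Ifitm3. Those of Ifngr1 were 0.03, -0.14 and -0.04, and those of Ifngr2 were 0.22, 0.63 and 0.27. For the sensors' adaptors they were -0.25, 0.26 and -0.09 for Mavs and 0.08, -0.23 and -0.04 for Myd88, and for the GTPases -0.16, -0.34 and -0.50 for Iigp1 and -0.67, 0.31 and -0.53 for Igtp.

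In the term for a different sex effect in the 2 series, where no member passed, 5 of 143 genes of these lists did by edgeR, against 0.158% of all genes: B2m (-1.61), Tap1 (-1.50), Psmb10 (-1.41), Psme2 (-1.17) and the GTPase Tgtp2 (-1.97).

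Several markers of macrophages, T cells and natural killer cells were, like the members, lower in the WT/TKO-named libraries. In bulk tissue, fewer cells of a type and less RNA per cell cannot be told apart. The summed level of 13 macrophage genes was 361 to 608 FPKM in the S-named and 268 to 361 FPKM in the WT/TKO-named libraries, and 9 of 13, were lower by edgeR: Fcgr1 (-1.36), Lyz2 (-0.77), Adgre1 (-0.73), Csf1r, C1qb and C1qc (-0.63 each), C1qa (-0.62), Cd163 (-0.41) and Mrc1 (-0.38). The sum of 8 T cell genes was 0.900 to 6.75 and 0.379 to 1.21 FPKM, and 5 of 7 tested were lower, Cd8b1 (-2.40), Cd8a (-2.13), Cd3d (-2.09), Lck (-2.01) and Trac (-1.72). The sum of 5 natural killer cell genes was 0.563 to 9.50 and 0.115 to 0.685 FPKM, and Gzma (-3.40) and Nkg7 (-2.68), of 3 tested, were lower.

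Within the S-named libraries the immune markers were also spread by labelled sex, although their ranges overlapped. The macrophage sum was 384 to 608 FPKM in those labelled female and 361 to 563 in those labelled male, and the natural killer sum 1.61 to 9.50 and 0.563 to 2.90 FPKM. The neutrophil sum went the other way, with a median of 10.9 FPKM in those labelled female (6.04 to 33.5) and 24.4 in those labelled male (5.88 to 44.8). The B cell sum had a higher median in those labelled female (11.03 against 4.18 FPKM), but its highest value, 365 FPKM in S7, was in a library labelled male. In the fit of all 20 libraries by labelled sex, Csf1r (0.46) and Gzma (2.45) were higher and the atrial gene Bmp10 (-10.8) was lower in libraries labelled female. S2, the library with the highest Irf7, Ifit1, Ifit3, Isg15, Rtp4 and Bst2, also held the highest T cell and natural killer sums and the highest mitochondrial share of counts (30.4%). Atrial transcripts were spread further. Their sum was 12.7 to 328 FPKM (median 34.3) in the S-named libraries labelled female and 10.3 to 6844 FPKM (median 3370) in those labelled male. In the fit of all 20 libraries, 5 of 6 atrial genes were lower in libraries labelled female at the thresholds of the study. At these thresholds 548 of 15187 genes were lower. The part of immune cells, of atrial tissue and of library quality in the differences of the members was not tested.

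The other marker lists were less alike. Of the B cell genes, Igkc (-3.71) was lower, of 4 tested, and the sum of 6 was 3.29 to 365 FPKM, highest in S7, against 0.888 to 2.78. Plasmacytoid dendritic cells, known as strong producers of type I interferon, were not detectable as such: Siglech had at most 0.0635 FPKM and Ccr9 at most 0.0467 in any library, Klk1 (-6.37) was lower and was at 0 in the WT/TKO-named libraries, and the sum of the 6 genes (2190 to 3755 FPKM) was nearly all Cox6a2, which the heart itself expresses. No neutrophil gene passed, of 5 tested (sums of 5.88 to 44.8 and 5.27 to 17.4 FPKM).

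Fibroblast genes did not pass (0 of 7, sums of 139 to 256 and 126 to 191 FPKM), and of 8 endothelial genes Cldn5 (1.004) was higher (223 to 432 and 219 to 425 FPKM). The labelled tissue was checked with 9 ventricular cardiomyocyte genes, whose sum was 9230 to 15709 FPKM over all libraries. Of these, Ttn (0.46), Ryr2 (0.42) and Mybpc3 (0.58) were higher in the WT/TKO-named libraries. Atrial genes were lower there for 5 of 6, Bmp10 (-13.8), Sln (-10.9), Myl7 (-9.56), Myl4 (-5.99) and Nppa (-3.28). Their sum was 10.3 to 6844 FPKM in the S-named and 7.87 to 18.5 FPKM in the WT/TKO-named libraries.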

How the data were processed

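Poly(A) RNA of mouse hearts was sequenced as paired 150-base reads from NEBNext Ultra libraries, per the labels. The authors deposited whole-number read counts per Ensembl gene, without normalization, and the FPKM made from them. The submitters' processing notes name HISAT2, HTSeq 0.6.1p2, DESeq2 1.26.0 and GRCm38; strand setting and annotation are not given in the sources used here. Coordinates are from GENCODE M21, which holds 29328 of the identifiers, and promoters from RefSeq.

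Groups were taken from the labels, which name separate samples; the methods speak of hearts of each mouse but give 3 mice per group, fewer than the 20 libraries, and do not say how libraries map to mice; p-values measure only the spread between libraries, which may in part be technical. Of 44 pairs within groups, none was a duplicate (lowest chi-square per degree of freedom 11.4). Genes that reached 10 counts in 3 or more of the libraries fitted were tested with edgeR 4.0.16 (R 4.3.3; TMM, quasi-likelihood) with Benjamini-Hochberg adjustment over all genes tested. Terms were name series and, where all libraries were fitted, labelled sex and genotype. CPM are counts scaled to the library total after adjustment by its TMM factor. The log2 CPM of correlations also used a prior count of 2. Correlations used 100000 resamples and, below 10 libraries, all permutations (scipy 1.17.1). The fits were tested on simulated data. Alternatives were DESeq2 1.42.0, limma 3.58.1 on log2(FPKM + 1), no filter, other covariates, subsets and each library left out.

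The members and the lists for pathways and cell types (markers of macrophages, T, B, NK and plasmacytoid dendritic cells, neutrophils, endothelium, fibroblasts, ventricle and atrium) were chosen with earlier results of these data known. Named are the 9 members, every gene of a list (1 is not reported here) that passed for a comparison or else its 2 genes of highest level, the 10 genes most like the members, sex-linked genes and Tecrl. Siglech, Ccr9 and Cox6a2 were named, and the comparison by labelled sex was added, after values were seen.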

Additional observations from a re-analysis of the deposited data

Results flagged for a closer look

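Of 27 sets of 4 to 10 libraries, each 1 member in 1 labelled group, 1 held a library far from the rest: Ifi44 had 4.67 CPM in S9, labelled male WT, where the other 4 libraries had 2.35 to 2.71 CPM. S9 is 1 of the 3 libraries labelled male WT that carry Xist. Chance alone gives a flag of this kind in about 1 of 20 sets. Without S9 the difference of Ifi44 between KO and WT in the libraries labelled male was 0.77 on the log2 scale, with an adjusted p of 0.60 by edgeR.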

How the results depend on the processing

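For the name series, the direction of all 9 members held under every alternative run. For KO against WT in the libraries labelled male, Ifit1, Usp18 and Rtp4 turned to -0.0064, -0.075 and -0.083 in the WT/TKO-named libraries alone. They were -0.0060, -0.075 and -0.083 without S4 to S9, and -0.034, -0.094 and -0.090 with a Y-linked covariate. In the S-named libraries alone 1 member passed the study's thresholds, where 169 genes were higher and 210 lower of 14120. With each library left out, 0 to 1 member passed them. In the libraries labelled female, 2 members passed those thresholds without the filter and 0 with limma or the S-named libraries alone. Without the series term 5 passed them. Without S4 to S9 all 9 did, and 6 passed the adjusted p, against 2.57% of genes. At the study's thresholds, 695 genes were higher and 1544 lower of 27319 without the filter. The counts were 594 and 855 of 14511 without the series term, and 932 and 1218 of 14235 without S4 to S9. The median was -0.84 and -1.44 in the last pair of fits, Irf7 -0.84 and -2.50 and Bst2 -0.61 and -1.56; limma gave 0.077 for Ifit3 and 0.050 for Isg15. With each library left out, 0 to 4 members passed the study's thresholds and 0 to 2 the adjusted p. The median then ran from -0.55 to 0.12, Ifit1 from -0.62 to 0.12, Ifit3 from -0.26 to 0.40, Isg15 from -0.27 to 0.34, Irf7 from -0.18 to 0.62 and Bst2 from -0.10 to 0.48.

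Over all 20 libraries, values near 0 changed sign. In the S-named libraries alone they were 0.16 for Ifit1, 0.072 for Usp18, -0.029 for Ifi44, 0.018 for Bst2 and -0.098 for Oasl2, and Ifit1 was 0.0054 in the WT/TKO-named libraries alone and 0.036 with limma. Without the series term Ifit3 was -0.14, Isg15 -0.13, Irf7 -0.19, Ifi44 -0.13 and Oasl2 -0.19. Ifit3 and Irf7 were -0.17 and -0.51 both without S4 to S9 and with the Y-linked covariate. With each library left out, Ifit1 ran from -0.10 to 0.22, Irf7 from -0.053 to 0.28, Ifi44 from -0.033 to 0.19 and Oasl2 from -0.060 to 0.14.

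For labelled sex, 3 members passed the adjusted p with DESeq2, without the filter, in the S-named libraries alone and with the Y-linked covariate. Among all genes, 119 were higher and 194 lower of 15187 with DESeq2, and 80 and 181 of 29339 without the filter. The counts were 47 and 81 of 14783 in the S-named libraries alone, and 172 and 421 of 15187 with the Y-linked covariate. The members that passed were 0 with limma, KO alone, WT/TKO-named alone, without S4 to S9 and without other terms, and 0 to 2 with each library left out. Usp18 was -0.39 in KO alone, -0.57 in WT/TKO-named alone and -0.25 without S4 to S9, and ran from -0.093 to 0.13 with each library left out. Oasl2 was -0.15 in KO alone, -0.027 in S-named alone and -0.047 with the Y-linked covariate. In KO alone Ifi44 was -0.026, and in WT/TKO-named alone Ifi44 was -0.011, Ifit3 -0.046, Isg15 -0.23 and the median 0.074. DESeq2 called 1 member in the series by sex term; with each library left out, 0 to 1 passed there and 0 to 2 in the genotype by sex term. With group means removed, the median r of pairs was 0.50 over all libraries and 0.56 in the S-named. The causes of these changes were not tested. For the libraries labelled female, the Y-linked covariate and the WT/TKO-named libraries alone were not run, since genotype, series and Y-linked level nearly coincide there and 1 genotype is missing. No paired analysis was possible because replicate numbers were given in the order of the samples and the labels pair none. The lowest count of a member in a library was 19, and low counts limit the precision of Ifi44 and Usp18.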
